A study of Mus musculus with 2 samples.

Results

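The genes described here build the autophagosome, pick its cargo, deliver it to the lysosome, and divide, fuse and clear mitochondria. They are 38 genes chosen by symbol, of 55536 annotated genes measured, and all 38 were found. Their levels come from total RNA of the hearts of female B6CASTF1/J mice, offspring of a C57BL/6J and CAST/EiJ cross, at 4 days of age. Each library was stranded and depleted of ribosomal RNA, and was made from 300 ng with ERCC spike-ins added. They form 1 group of 2 biological replicates, and the labels give both replicates the same donor identifier but separate biosamples. There is no contrast between groups. No p-value is given, since a two-sided permutation test of 2 samples cannot go below 0.5, and spread is described by the SD of the 2 libraries, which may be partly technical.

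Macroautophagy starts when the ULK kinase complex and a phosphatidylinositol 3-kinase complex mark a membrane. Ubiquitin-like conjugation then attaches proteins of the Atg8 family (LC3 and GABARAP) to that membrane, receptors tie cargo to them, and the closed vesicle fuses with a lysosome. Mitophagy applies the same machinery to mitochondria, through the kinase PINK1 and ubiquitin or through receptors in the outer mitochondrial membrane. Fusion by mitofusins and OPA1 and fission by DRP1 shape the mitochondria, and in the postnatal mouse heart both mitophagy and mitofusins are known to take part in the change to adult mitochondria.

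Total expected counts were 36175363 in replicate 1 and 32509660 in replicate 2. All 10 cardiomyocyte markers were above a TPM (a level corrected for transcript length and scaled to a fixed total) of 1 in both libraries, from Ryr2 at 323 ± 12.0 to Myl2 at 8324 ± 178 TPM (SD, n = 2). Erythroid markers stood apart: their summed level was 17279 TPM in replicate 1 and 221 TPM in replicate 2. Skeletal muscle markers also differed, with 7 of 8 measured members at least 2-fold higher in replicate 1, and so did 2 of 3 Schwann and neural markers. Levels of a whole heart mix cell types, so that fewer cells of a type and less RNA per cell cannot be told apart.

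All 38 genes reached a TPM of 1 in both libraries, a level that 24.1% of annotated genes and 54.2% of protein-coding genes reached. Their median was 29.9 TPM, against 12.5 TPM for protein-coding genes past the same level. Of the 38 genes, 10 lay in the top 10% of expressed genes, above 64.8 TPM, where 9.98% of expressed protein-coding genes lie. The lowest gene was Atg14 at 3.16 ± 0.127 TPM and the highest Mfn2 at 221 ± 3.91 TPM (SD, n = 2 each), and 31 genes had at least 10 TPM in both libraries. Together they held 1868 TPM in replicate 1 and 1916 TPM in replicate 2. By role, the Atg8 family held 431 ± 11.4 TPM and the fusion genes 407 ± 1.01 TPM, while the initiation genes held 50.1 ± 1.68 TPM.

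**Figure D1:**
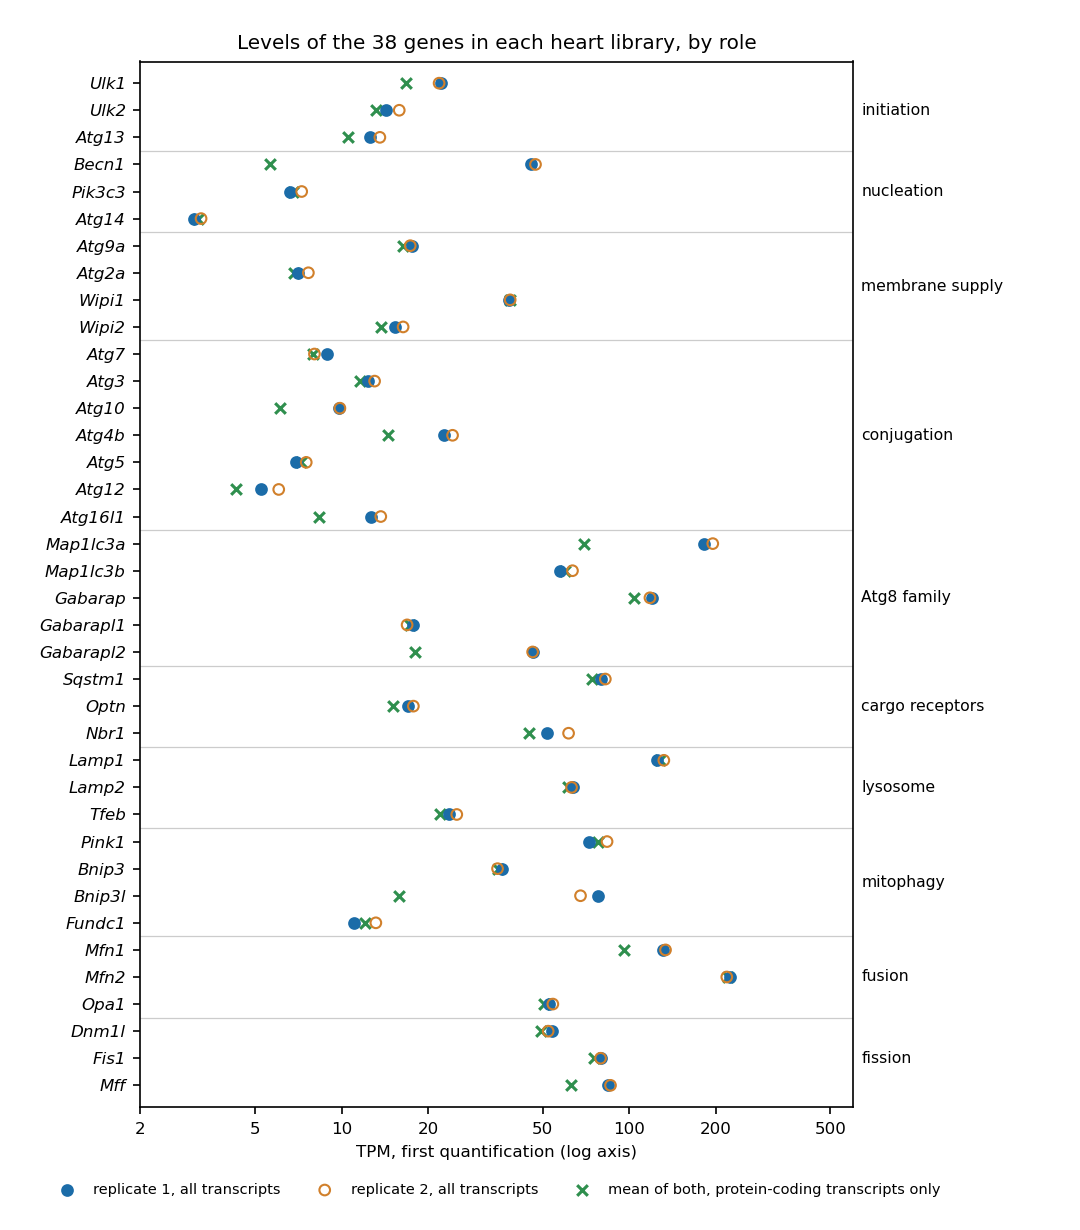
TPM of each gene in replicate 1 (filled circles) and replicate 2 (open circles) on a log axis, with the mean of both libraries over transcripts annotated as protein coding (crosses). The 2 libraries lie close together for nearly every gene, from Atg14 near 3.16 TPM to Mfn2 near 221 TPM, while the crosses fall far to the left for Becn1, Map1lc3a, Gabarapl2 and Bnip3l.

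A gene's TPM adds up all its annotated transcripts, including short ones that encode no protein. Transcripts annotated as protein coding held 79.3% ± 0.0317 of the summed TPM of the 38 genes, those annotated as processed transcripts 10.6% ± 0.471, those with a retained intron 8.06% ± 0.303 and those annotated for nonsense mediated decay 2.08% ± 0.199. In a second deposited quantification the protein-coding share was 85.1% ± 0.333. For 4 genes the leading transcript in the first quantification was not annotated as coding (7.16% of expressed protein-coding genes with several transcripts), and for 3 of them, Becn1, Bnip3l and Gabarapl2, in both quantifications (4.67% of those genes). Levels of these genes are therefore given for all transcripts and for coding ones.

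**Figure D2:**
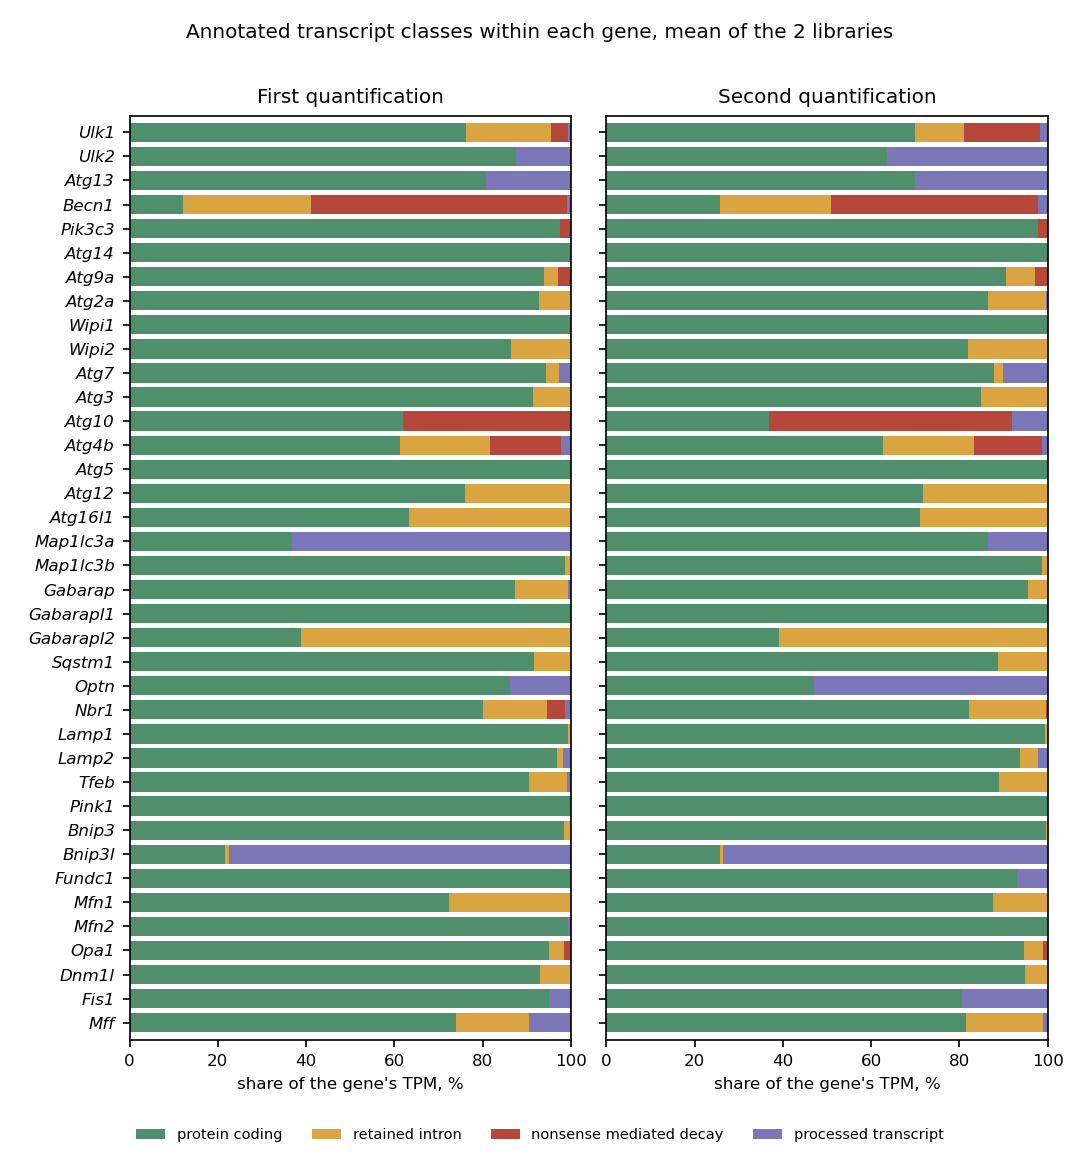
Share of each gene's TPM by annotated transcript class, as the mean of the 2 libraries, in the first quantification (left) and the second (right). Coding transcripts fill most bars; Becn1, Bnip3l and Gabarapl2 have small coding shares on both sides, and Map1lc3a has 37.0% coding on the left but 86.5% on the right.

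The initiation genes were expressed at modest levels. Ulk1, the kinase that starts autophagosome formation, stood at 22.1 TPM in replicate 1 and 21.8 TPM in replicate 2. Its paralog Ulk2, whose protein is 56.2% identical over 999 aligned residues, had 14.2 and 15.9 TPM in replicates 1 and 2. The ratio of Ulk1 to Ulk2 was 1.46-fold, below the 2-fold in both libraries that was required to call a pair. Atg13, the regulatory subunit of the ULK complex, had 12.6 and 13.6 TPM and was 1.68-fold below Ulk1, which also falls short of the limit on the TPM scale and passes it by CPM (log2 -1.19).

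Among the nucleation genes, Becn1 differed between what the gene and its coding transcripts gave. Becn1, the Beclin 1 subunit of the PI 3-kinase complex (mm10 chromosome 11, 101285952 to 101302286, minus strand), had 45.7 TPM in replicate 1 and 47.2 TPM in replicate 2. Its coding transcripts held only 5.22 and 6.10 TPM of that, or 12.2% of the gene, and 25.8% in the second quantification. Becn1-201, annotated for nonsense mediated decay although it is the longest of the transcripts that held at least 10%, led the gene with 40.7% ± 2.13 in the first quantification and 27.6% ± 1.16 in the second. What that annotation means for the protein was not tested.

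Pik3c3, the catalytic lipid kinase VPS34, had 6.64 and 7.27 TPM, and Atg14, which directs the complex to autophagosomes, 3.07 and 3.25 TPM in replicates 1 and 2. Becn1 was 6.68-fold above Pik3c3 and Atg14 14.7-fold below Becn1 over all transcripts, and both pairs were called. Over coding transcripts only, the log2 ratio of Becn1 to Pik3c3 was -0.26 and that of Atg14 to Becn1 -0.83, so neither remained a call. The log2 ratios of coding transcripts in the second quantification were 1.27 and -2.43. The RNA ratio of these subunits depended on which Becn1 transcripts were counted.

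Genes for membrane supply gave steadier ratios. Wipi1, which binds phosphatidylinositol 3-phosphate, had 38.2 TPM in replicate 1 and 38.5 TPM in replicate 2, while its paralog Wipi2, which recruits the conjugation machinery, had 15.4 and 16.4 TPM. Wipi1 was 2.42-fold higher, with log2 ratios of 1.31 and 1.24 in replicates 1 and 2, and the mean log2 ratio was 1.30 in the second quantification and 1.48 over coding transcripts. By CPM (counts per library total, with no correction for length) it was 0.75 and not a call. Atg9a, the lipid scramblase of the seed vesicles, had 17.6 and 17.3 TPM, against 7.05 and 7.67 TPM for the lipid transfer protein Atg2a, a 2.38-fold excess that was called in both quantifications and missed the limit by CPM.

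The conjugation genes ran from Atg12 at 5.66 ± 0.559 to Atg4b at 23.5 ± 1.08 TPM. Atg7, the E1-like enzyme, had 8.87 and 8.05 TPM in replicates 1 and 2, Atg3, the E2-like enzyme for the Atg8 proteins, 12.3 and 13.0 TPM, and Atg10, the E2-like enzyme for ATG12, 9.81 and 9.87 TPM. Neither Atg7 nor Atg10 differed 2-fold from Atg3 over all transcripts, while Atg10 was called lower over coding transcripts of the second quantification, at a log2 ratio of -1.42. Atg10-203, annotated for nonsense mediated decay, held 34.5% of Atg10 in replicate 1 and 41.5% in replicate 2, and 55.1% ± 13.4 in the second quantification. Atg12, the ubiquitin-like protein, had 5.26 and 6.05 TPM, and Atg5, to which it is joined, 6.96 and 7.54 TPM. The log2 ratio of Atg12 to Atg5 was -0.36, not a call, and by CPM it turned to 0.45. Atg16l1, which holds the conjugate of ATG12 and ATG5 at the membrane, had 12.7 and 13.7 TPM, 1.82-fold above Atg5 and short of a call. The log2 ratio of Atg16l1 to Atg5 was 1.01 by CPM, a call, and 0.20 over coding transcripts. Of Atg16l1, 36.7% ± 3.00 came from transcripts with a retained intron. The small RNA genes Gm25395 and Scarna6 lie on the same strand within Atg16l1 at 179 and 91.0 TPM, and whether they share reads with it was not tested.

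Atg4b, the protease that trims the Atg8 proteins before conjugation, had 22.8 and 24.3 TPM in replicates 1 and 2. Its coding transcripts held 61.4% of that. Thap4, on the opposite strand over 3365 shared bases, stood at 30.9 ± 0.636 TPM, and as the use of strand in counting is not given in the sources used here, reads of the pair may have been mixed. Of the 38 genes, 18 overlap another annotated gene and 5 overlap one on the opposite strand with a mean TPM of at least 1.

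The Atg8 family, the proteins that coat the growing membrane, supplied the largest sum of any role over all transcripts in both quantifications. Over coding transcripts of the first quantification the Atg8 family held 269 TPM and the fusion genes 366 TPM, and by CPM 334 and 1031. Over coding transcripts of the second quantification the Atg8 family was again the higher, at 564 TPM against 508 TPM. ATG4 proteases cut each precursor after a conserved glycine, whose codon is in capitals in the last 30 coding bases before the stop codon (GENCODE M21 transcripts, mm10, sense strand). The ends of 4 members are shown because the family is compared by level and they show the shared cut site.
Map1lc3a: gtctacgcctcccaagaaaccttcGGCttc
Gabarap: gcctacagtgatgaaagcgtctatGGTctg
Gabarapl1: gcctacagtgatgaaagtgtctatGGAaaa
Gabarapl2: gcctacagcggagagaacacttttGGCttc
They lie at chr2:155277605-155277634, chr11:69994492-69994521, chr6:129541135-129541164 and chr8:111952373-111952402, all on the plus strand, in the order listed. Each of the 4 encodes 1 residue after the glycine. Translated from the same transcripts, LC3A and LC3B were 81.8% identical, GABARAP and GABARAPL1 86.3%, and GABARAP and GABARAPL2 57.3%, while an LC3 and a GABARAP protein shared between 31.6% and 41.9%.

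Among these genes Map1lc3a had 182 TPM in replicate 1 and 195 TPM in replicate 2, and Map1lc3b had 57.6 and 63.5 TPM. The ratio of Map1lc3a to Map1lc3b was 3.11-fold and was called in both quantifications. Over coding transcripts in the first quantification, Map1lc3a held only 62.1 and 77.2 TPM, because Map1lc3a-203, an annotated processed transcript, took 60.1% ± 0.523 of the gene. The second quantification gave that transcript 13.6% ± 1.42 and gave the coding Map1lc3a-201 86.4% ± 1.42. The log2 ratio of Map1lc3a to Map1lc3b over coding transcripts was 0.22 in the first quantification and 0.82 in the second, and by CPM it was 0.68, in none a call, so Map1lc3a was above Map1lc3b throughout but by an amount that was not fixed.

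Gabarap had 120 TPM in replicate 1 and 118 TPM in replicate 2, and its lead within its subfamily held in each form of counting. Gabarapl1, at 17.7 and 16.9 TPM, was 6.88-fold below Gabarap, and the log2 ratio of -2.78 compares with -2.55 in the second quantification and -2.59 over coding transcripts. Gabarapl2 had 46.3 and 46.1 TPM, 2.58-fold below Gabarap. A retained-intron transcript, Gabarapl2-203, held 60.1% ± 0.333 of that gene in the first quantification and 59.8% ± 1.04 in the second. Over coding transcripts Gabarapl2 averaged 18.0 TPM, close to the 17.3 TPM of Gabarapl1, although Gabarapl1 was 2.67-fold below Gabarapl2 over all transcripts. That call was lost in the second quantification (log2 -0.96), by CPM (log2 -0.76) and over coding transcripts (log2 -0.06). The sum of the GABARAP genes was 1.36-fold below that of the LC3 genes and not a call. Over coding transcripts of the first quantification the mean log2 ratio was 0.11, but the 2 libraries differed in sign. Over coding transcripts of the second quantification it was -0.79.

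**Figure D3:**
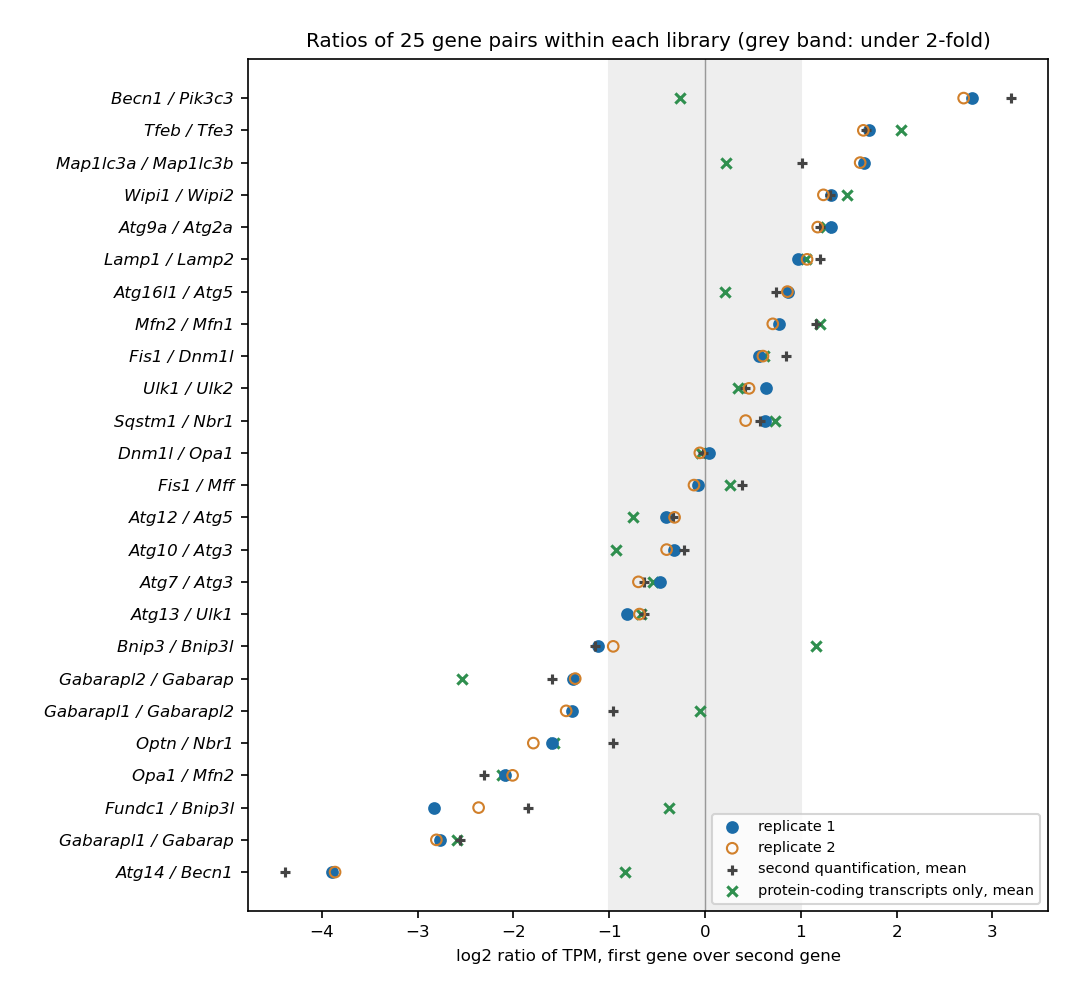
Log2 ratio of TPM, first gene over second gene, for 25 pairs, in replicate 1 (filled circles) and replicate 2 (open circles), with the mean in the second quantification (plus signs) and over coding transcripts (crosses). The 2 replicates lie close together in most pairs and furthest apart for Fundc1 over Bnip3l, 12 pairs lie beyond 2-fold in both, and the crosses leave the circles mainly where Becn1, Bnip3l, Map1lc3a or Gabarapl2 is part of a pair.

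Among the cargo receptors Sqstm1, the ubiquitin-binding p62 protein, was the highest on the TPM scale, with 79.9 TPM in replicate 1 and 82.6 TPM in replicate 2. Nbr1, a related receptor that binds p62, had 51.6 and 61.5 TPM, and its 2 libraries differed by more in TPM than those of Sqstm1. Its coding transcripts held 45.0 and 44.8 TPM, so the gap between the libraries was not in the coding part. The log2 ratio of Sqstm1 to Nbr1 was 0.53, not a call, and by CPM it turned to -0.44. Optn, a receptor that binds ubiquitin-tagged cargo, mitochondria among it, had 17.1 and 17.8 TPM, and was 3.24-fold below Nbr1. That ratio fell just short of a call in the second quantification, where its mean log2 was -0.97.

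Of the lysosomal genes, Lamp1, a major protein of the lysosomal membrane, had 125 and 132 TPM in replicates 1 and 2 and Lamp2 63.6 and 63.0 TPM. The ratio was 2.03-fold, with log2 values of 0.98 and 1.07, so it sat at the limit and was not a call. It was called in the second quantification, at a log2 of 1.20. Tfeb, the transcription factor for lysosomal and autophagy genes, had 23.6 and 25.1 TPM, and was called 3.21-fold above its relative Tfe3 at 7.60 ± 0.573 TPM. By CPM the log2 ratio was 0.97, just short of a call. Mitf, another relative, stood close to Tfeb at 21.05 ± 2.52 TPM. In the second quantification Mitf had 28.2 TPM and Tfeb 27.9 TPM, so Tfeb did not lead all its relatives.

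Lamp2 makes 3 proteins that share their lumenal part and differ in the membrane span and short cytosolic tail. LAMP-2A is the receptor of chaperone-mediated autophagy, and LAMP-2B is known as the prevailing form in heart and muscle, where human LAMP2 mutations cause Danon disease. The last 33 coding bases before each stop codon are shown as the tails that set the forms apart (mm10, minus strand, read 5′ to 3′).
Lamp2-201 (LAMP-2A): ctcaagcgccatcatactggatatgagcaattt
Lamp2-202 (LAMP-2B): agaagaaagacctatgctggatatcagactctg
Lamp2-203 (LAMP-2C): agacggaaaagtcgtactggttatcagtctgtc
They lie at chrX:38405435-38405467, chrX:38421715-38421747 and chrX:38402142-38402174. LAMP-2B held 69.8% of Lamp2 TPM in replicate 1 and 68.9% in replicate 2, LAMP-2A 21.9% and 23.0%, and LAMP-2C 5.30% and 4.97%. The second quantification gave 70.3% ± 0.303 and 18.7% ± 0.792 for LAMP-2B and LAMP-2A (SD, n = 2), and 4.67% in each library for LAMP-2C, so the order of the forms did not depend on the quantification.

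Mitophagy genes here are Pink1 and the receptors. Pink1, the kinase that accumulates on damaged mitochondria, had 72.3 TPM in replicate 1 and 83.7 TPM in replicate 2. Its 2 libraries lay further apart, relative to its level, than those of most of the 38 genes, with an SD of 8.08 TPM around a mean of 78.0 TPM. The leading transcript Pink1-201 held 57.6 TPM of it in replicate 1 and 66.55 TPM in replicate 2.

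The receptors Bnip3 and Bnip3l, whose proteins are 66.3% identical, bind LC3 from the outer mitochondrial membrane. Bnip3 had 36.1 and 34.9 TPM in replicates 1 and 2, and Bnip3l, also called NIX, had 78.1 and 67.7 TPM (mm10 chromosome 14, 66985239 to 67008877, minus strand). Bnip3 was thus 2.05-fold below Bnip3l, with log2 values of -1.11 and -0.96, which is not a call, while the second quantification called it at a log2 of -1.15. Processed transcripts held 77.6% ± 2.20 of Bnip3l, led by Bnip3l-205 with 39.4% ± 0.782. Bnip3l-201, the coding transcript with all of the coding TPM in the first quantification, had 18.4 and 13.3 TPM, and over coding transcripts Bnip3 was the higher gene, at a log2 ratio of 1.16 in the first quantification and 0.82 in the second. Which receptor was higher therefore depended on whether short noncoding transcripts were counted.

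Fundc1, a receptor used in hypoxia, had 11.0 and 13.2 TPM in replicates 1 and 2. It was 6.04-fold below Bnip3l over all transcripts, with log2 values of -2.83 and -2.36. Its mean log2 ratio was -0.38 over coding transcripts and 0.019 over coding transcripts of the second quantification. In the latter the 2 libraries differed in sign, with Fundc1 at 18.4 and 20.9 TPM and Bnip3l at 23.2 and 16.1 TPM.

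Mitochondrial fusion genes were high. Mfn2, an outer-membrane mitofusin that also tethers mitochondria to the endoplasmic and sarcoplasmic reticulum (mm10 chromosome 4, 147873599 to 147904704, minus strand), had 224 TPM in replicate 1 and 218 TPM in replicate 2, from 24174 and 21126 counts. Mfn1 had 131 and 134 TPM. Mfn2 was 1.67-fold above Mfn1, short of a call, while the second quantification (log2 1.16), coding transcripts (log2 1.20) and CPM (log2 1.80) each put it beyond 2-fold. Retained-intron transcripts held 27.7% ± 1.83 of Mfn1 in the first quantification and 12.3% ± 3.21 in the second. Among them Mfn1-210, of 246 bases, held 18.4% ± 1.30 in the first and nothing in the second. Coding transcripts held 99.3% of Mfn2 in the first quantification. Opa1, the fusion GTPase of the inner membrane, had 52.5 and 54.2 TPM, and was 4.14-fold below Mfn2, a call that held in both quantifications, over coding transcripts and by CPM.

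Fission genes were closer to each other. Dnm1l, the DRP1 GTPase that constricts mitochondria, had 53.9 TPM in replicate 1 and 52.3 TPM in replicate 2, and matched Opa1 with log2 ratios of 0.04 and -0.05, whose signs differ between the libraries. Its outer-membrane adaptor Mff had 84.0 and 86.0 TPM and Fis1, another outer-membrane protein linked to fission, 79.6 and 79.5 TPM. Fis1 differed from Mff by 1.07-fold and from Dnm1l by a log2 ratio of 0.58, and neither was a call. Both directions depended on the counting: by CPM the log2 ratio of Fis1 to Dnm1l was -1.73, a call with Dnm1l higher, and that of Fis1 to Mff was 0.39 in the second quantification and 0.26 over coding transcripts. The fission genes summed to 1.87-fold less than the fusion genes, with log2 values of -0.91 and -0.90 in replicates 1 and 2. That gap was short of 2-fold on the TPM scale and beyond it by CPM (log2 -1.97) and over coding transcripts of the second quantification (log2 -1.19).

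Of the 25 pairs, 12 were called, 5 with the first gene higher and 7 with the second. In the second quantification 24 pairs kept their direction and 10 of the 12 calls held. Over coding transcripts 22 pairs kept their direction and 7 of the 12 calls held. By CPM 22 pairs kept their direction, but the set of calls changed. Wipi1 over Wipi2, Atg9a over Atg2a, Map1lc3a over Map1lc3b, Gabarapl1 over Gabarapl2 and Tfeb over Tfe3 lost their calls. Atg13 over Ulk1, Atg16l1 over Atg5, Mfn2 over Mfn1 and Fis1 over Dnm1l gained one. Neither of the 2 pairs of sums was called. The ratios rest on how transcript lengths are handled, and the spread between the libraries does not cover that.

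Some coding exons of the 38 genes were partly included; the share of such exons over other genes was not computed. Among coding transcripts, 21 coding exons with a length divisible by 3 were skipped by some transcripts and held by others. Of these, 12 exons in 7 genes had an inclusion of 10 to 90% in both quantifications, and 8 of the 12 differed by at most 15 percentage points between the quantifications. Inclusion here is the TPM share of transcripts that hold the exon among coding transcripts that hold or skip it, and it was computed after other results were seen. The exons of Opa1, Dnm1l and Mff that met both limits are printed because they carry the isoform differences of the fission and fusion machinery (mm10, sense strand).
Opa1 54-base exon: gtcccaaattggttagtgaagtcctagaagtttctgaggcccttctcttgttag
Opa1 111-base exon: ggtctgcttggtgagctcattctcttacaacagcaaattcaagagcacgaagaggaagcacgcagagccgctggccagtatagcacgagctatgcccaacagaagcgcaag
Dnm1l 39-base exon: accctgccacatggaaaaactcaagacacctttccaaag
Dnm1l 78-base exon: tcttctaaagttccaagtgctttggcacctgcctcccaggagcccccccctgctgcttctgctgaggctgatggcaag
Mff 75-base exon: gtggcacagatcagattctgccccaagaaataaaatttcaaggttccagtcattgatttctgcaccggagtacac
Mff 159-base exon: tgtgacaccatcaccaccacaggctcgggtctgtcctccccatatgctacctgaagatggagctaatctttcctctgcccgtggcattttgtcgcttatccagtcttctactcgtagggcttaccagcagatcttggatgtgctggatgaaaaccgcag
Mff 60-base exon: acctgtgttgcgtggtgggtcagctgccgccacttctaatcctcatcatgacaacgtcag
Their positions are chr16:29588823-29588876 and chr16:29597586-29597696 on the plus strand, chr16:16342697-16342735 and chr16:16318764-16318841 on the minus strand, and chr1:82737013-82737087, chr1:82741818-82741976 and chr1:82747083-82747142 on the plus strand.

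Both Opa1 exons lie in the stretch near the start of the protein that the proteases OMA1 and YME1L1 process. The 54-base exon was included at 15.7% in replicate 1 and 12.9% in replicate 2, and the 111-base exon at 39.4% and 42.0%. The second quantification gave means of 15.3% and 35.4%, so each exon was absent from most Opa1 coding RNA in both. The quantifications placed the 54-base exon mainly on different transcripts. Opa1-208 and Opa1-201 had means of 5.8 and 1.40 TPM in the first, and 0.86 and 8.47 TPM in the second. The similar means for that exon therefore do not rest on the same RNA.

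In Dnm1l, the 39-base exon adds to the GTPase domain and was included at 15.05% in replicate 1 and 10.8% in replicate 2. The 78-base exon of the variable domain was included at 21.6% and 24.7%, with a second-quantification mean of 28.0%. The neighbouring 33-base exon stood at 34.9% ± 1.34 in the first quantification and 52.8% ± 3.50 in the second, a gap wider than the spread between libraries. Mff used its 75-base exon at 11.2% and 15.5% in replicates 1 and 2, its 159-base exon at 27.9% and 23.0%, and its 60-base exon at 66.5% and 63.8%. Means of these Mff exons in the second quantification were 22.1%, 36.3% and 77.8%, in the same order of inclusion. The counts of single transcripts behind these shares were less certain than those of genes: the authors' posterior SD reached 16.5% of the count for Opa1-208, 85.5% for Opa1-201, 22.5% for Dnm1l-202 and 16.7% for Mff-202, and the SD of the 2 libraries does not cover that. No single Mff transcript held more than 17.1% ± 1.03 of the gene in the first quantification.

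Outside the dynamics genes, the 48-base exon of Atg16l1 was included at 66.5% ± 2.88 in the first quantification and 52.3% ± 4.38 in the second. Exons of Atg13 (111 bases), Nbr1 (111 bases) and Tfeb (255 bases) were mixed but differed by more than 15 points between the quantifications, as with Nbr1 at 60.0% ± 0.882 and 86.1% ± 0.0748.

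The leading transcript was the same in both quantifications for 28 of the 38 genes, against 75.8% of expressed protein-coding genes with several transcripts, and held at least 50% of the gene for 24, against 69.0%. Some genes had a single dominant form in both: Atg5-201 held all of Atg5, Lamp1-201 held 99.4% ± 0.136 and 99.3% ± 0.0215, Bnip3-201 88.0% ± 0.965 and 96.8% ± 1.55, Sqstm1-202 85.0% ± 0.0851 and 84.5% ± 1.51, and Pink1-201 79.6% ± 0.126 and 82.9% ± 4.94 in the first and second quantification. Others kept their leading transcript at a much lower share in the second, such as Mfn2-201 at 88.2% ± 1.49 and 46.6% ± 5.89 and Fis1-201 at 88.8% ± 1.24 and 44.9% ± 8.51. The leading transcript changed for Atg7, Atg9a, Atg10, Atg14, Fundc1, Gabarap, Map1lc3a, Map1lc3b, Nbr1 and Tfeb, as in Tfeb, where Tfeb-212 led with 39.4% ± 0.0758 in the first and Tfeb-202 with 67.3% ± 4.48 in the second.

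**Figure D4:**
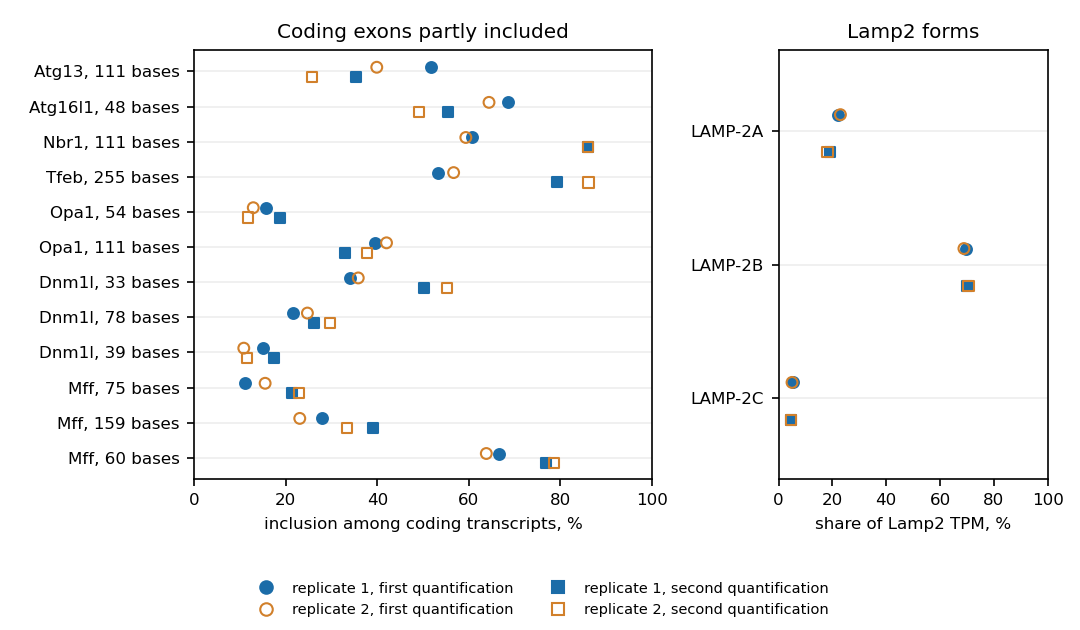
Left, inclusion in percent of the 12 partly included coding exons; right, share of Lamp2 TPM held by each form. Circles are the first quantification and squares the second, filled for replicate 1 and open for replicate 2; LAMP-2B lies near 70% and LAMP-2A near 20% in both, while the exons of Nbr1, Tfeb and Atg13 move with the quantification.

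Between the libraries, the levels of the 38 genes lay close together. None of the 38 was called at 2-fold or more, in a comparison that called 0.860% of 13598 measured genes: 0.537% were higher in replicate 1, and 0.324% were lower there. Log2 ratios of replicate 1 over replicate 2, on counts scaled by TMM, ran from -0.13 for Pink1 to 0.46 for Bnip3l. Their median was 0.01 and their median size 0.06, against 0.00 and 0.09 over all measured genes. Of the 38, 23 were higher in replicate 1, where 51.1% of measured genes were higher. Scaled to the spike-ins, 3 of the 38 and 15.8% of measured genes were higher in replicate 1, as that scaling put the median of all measured genes at -0.13, so the directions hold only relative to all genes. The exact 95% interval of the count ratio left out equality for 9 genes, against 23.7% of measured genes, and for 22 under the spike-in scaling; these intervals cover counting error only.

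Bnip3l had the widest difference, with 2481 counts in replicate 1 and 1676 in replicate 2. Its log2 ratio was 0.46 (exact 95% interval 0.37 to 0.55), and the next largest among the 38 was 0.21. Of all measured genes, 4.88% differed by at least as much as Bnip3l. The coding transcript Bnip3l-201 had 1622 and 1023 counts and a log2 ratio of 0.56 (0.44 to 0.67), and the longest processed transcript, Bnip3l-205, had 605 and 446 counts and a ratio of 0.33 (0.15 to 0.51). Bnip3l is known to clear mitochondria from maturing red blood cells in the mouse. The erythroid list moved in the same direction: 6 of its 6 measured members were called higher in replicate 1, with a median log2 ratio of 6.32. The heme synthesis enzyme Alas2 had 95.6 TPM in replicate 1 and 1.03 TPM in replicate 2. The part of red cell RNA in the Bnip3l difference was not tested.

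**Figure D5:**
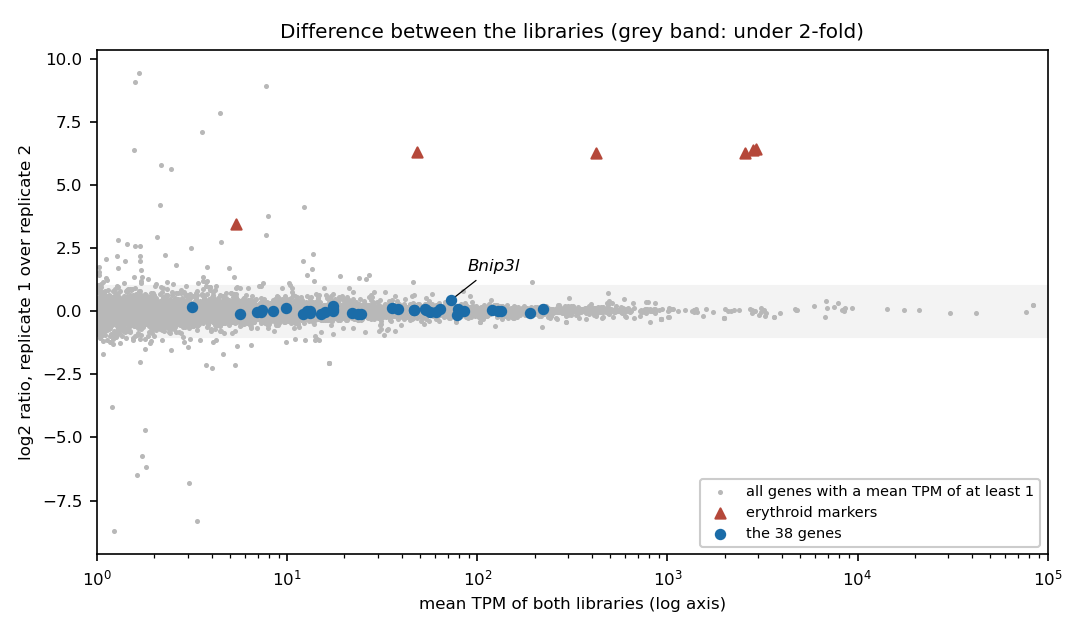
Log2 ratio of replicate 1 over replicate 2 against mean TPM (log axis) for genes with a mean TPM of at least 1 (grey), the 38 genes (circles) and erythroid markers (triangles). The 38 genes lie between -0.13 and 0.46, with Bnip3l the highest, while the erythroid markers lie above 3.

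Other genes listed for the same pathways, 89 in 8 lists, were mostly present: 84 reached a TPM of 1 in both, against 54.2% of protein-coding genes. None of the 85 that were measured was called between the libraries. Of all measured genes 0.860% were called, a share at which a list of this size may hold none. Levels and order within the lists are those of the first quantification. Initiation was led by Rb1cc1 (the scaffold FIP200, 30.3 ± 3.13 TPM), with Atg101 at 10.6 ± 1.33 and Ambra1 at 10.3 ± 0.644 TPM. Among PI 3-kinase and membrane-source genes, Sh3glb1 (112 ± 4.16 TPM) led Vmp1 (32.4 ± 0.962 TPM) and Tmem41b (22.8 ± 0.339 TPM). For conjugation and lipid transfer the highest were Wdr45b (25.2 ± 0.636 TPM), Atg4d (24.2 ± 1.00 TPM) and Tecpr1 (13.0 ± 2.09 TPM), while Atg9b, the paralog of Atg9a, had 0.37 and 0.54 TPM.

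The highest of the other receptors were Rtn3 at 52.4 ± 0.516, Retreg1 at 52.1 ± 3.39 and Bag3, a cochaperone of muscle, at 50.5 ± 1.71 TPM. The second quantification put Ncoa4 first, at 88.6 TPM against 67.4 TPM for Rtn3. All 21 genes for vesicle fusion and lysosomal content were present. They were led by the cathepsins Ctsd (156 ± 4.79 TPM) and Ctsb (132 ± 8.66 TPM) and by Rab7 (107 ± 2.38 TPM). The second quantification put Rab7 first, at 223 TPM, with Ctsd at 196 TPM and Ctsb at 170 TPM. The control of TFEB was represented by Lamtor1 at 45.9 ± 0.339, Rragd at 39.5 ± 3.02 and Rraga at 33.9 ± 1.05 TPM. Tfec, also a relative of Tfeb, had 0.28 and 0.12 TPM in replicates 1 and 2, from 9 and 5 counts.

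The inner-membrane mitophagy receptor Phb2 (179 ± 4.00 TPM), the outer-membrane Fkbp8 (92.7 ± 3.49 TPM) and the mitochondrial biogenesis coactivator Ppargc1a (58.1 ± 0.827 TPM) headed the mitophagy list. In the dynamics list, Immt (212 ± 2.43 TPM) and Chchd3 (172 ± 2.34 TPM), both of the complex that holds cristae junctions, stood at levels near Mfn2, followed by the transport adaptor Trak1 (133 ± 8.17 TPM). Gdap1, a fission factor of neurons, had 0.04 and 0.05 TPM, from 5 counts or fewer in each library. Misp, on the list although named for mitotic spindle positioning, had 0.06 and 0.09 TPM, also from 5 counts or fewer in each. Pld6, a phospholipase of the mitochondrial surface, had 0.97 TPM in replicate 1 and 1.33 TPM in replicate 2.

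Because Tfeb is among the genes, promoters were searched for the E-box CACGTG and for TCACGTG, the core of the motif bound by TFEB and its relatives, on both strands, where each TCACGTG also counts as a CACGTG. RefSeq windows of 300 bases (250 before to 50 after the start, GRCm38.p6) matched 32 of the 38 genes. CACGTG was in the windows of 6 genes (18.8%), Atg3, Atg5, Atg7, Atg14, Bnip3 and Lamp1, against 8.09% of all genes with a window. TCACGTG was in 4 (12.5%), Atg3, Atg7, Atg14 and Lamp1, against 4.29% of all genes with a window, which were not limited to expressed genes. The matching windows of Atg7 (chr6:114670846-114671145) and Atg14 (chr14:47568385-47568684) lie inside the annotated genes. Those genes span chr6:114643097-114860614 on the plus strand and chr14:47540893-47570649 on the minus strand. Lamp1 held 4 copies and Atg3 held 2, and the 100 bases before the start of these genes are shown with each CACGTG in capitals.
Lamp1 promoter: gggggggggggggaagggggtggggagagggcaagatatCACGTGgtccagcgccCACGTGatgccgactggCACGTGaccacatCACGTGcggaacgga
Atg3 promoter: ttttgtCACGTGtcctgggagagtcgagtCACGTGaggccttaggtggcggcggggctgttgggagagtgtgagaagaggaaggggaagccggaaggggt
They lie at chr8:13159061-13159160 and chr16:45158729-45158828, both on the plus strand. A match describes the sequence and shows no binding, and these libraries hold no measure of TFEB on DNA. Lamp1 and Atg3 stood at 128 ± 4.77 and 12.7 ± 0.502 TPM.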

How the data were processed

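Total RNA was sequenced from 2 heart libraries. Per library, the authors deposited RSEM-layout tables of genes and of transcripts, with expected counts and TPM, and a kallisto-layout transcript table, with estimated counts and TPM, on mm10 with GENCODE M21, per the file headers and labels. Names and versions of the programs, and whether counting used strand, were not given in the sources used here. RSEM-layout tables are the first and main quantification; the kallisto-layout table, the second, was summed per gene. Depth was 36175363 and 32509660 counts, and a count of 0 allows up to 3, which is 0.0829 and 0.0923 CPM. The genes, pairs and lists were chosen with earlier results of these data known, and 1 listed gene, with its pair and sum, and 1 sequence are not reported here. Every one of the 38 genes and each pair is named. Of each other list the 3 highest genes and those under a TPM of 1 in both libraries are named. Mitf, Ncoa4, Pld6, at or above 1 in replicate 2 only, and Lamp2-203, under 10% of its gene, were named after their values were seen. Transcripts named are the leading one and others of at least 10%. A pair was called at 2-fold or more in both libraries, with the same sign. Between libraries, counts were rounded, scaled by TMM (edgeR 4.0.16, R 4.3.3) with a prior count of 0.5, and called at 2-fold where mean TPM was 1 or more, the 2 counts summed to 20 or more, and the 95% interval (exact, Clopper-Pearson) left out equality. The common biological coefficient of variation was 9.02% over 16473 genes with at least 10 counts in both. This rule was tested on simulated data. Proteins were translated and aligned with Biopython 1.88. The authors' posterior SD of the count was at most 0.851% of the count for any of the 38 genes, and for the 80 transcripts that held at least 10% of their gene it had a median of 8.49% and reached 50.8%.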

Additional observations from a re-analysis of the deposited data

How the results depend on the processing

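No paired analysis was possible because the design holds 1 group of 2 libraries. All 38 genes stayed above the limit in the second quantification, by the posterior mean and at a TPM of 0.5, and 37 did at a TPM of 5. Genes in the top 10% numbered 10 or 11 in every setting tried. The summed level was 2508 TPM in the second quantification and 4150 TPM when rescaled to nuclear protein-coding genes, against 1892 TPM. Pairs called numbered 12, with 13 in the second quantification, 11 by CPM, 17 at 1.5-fold and 13 with either library alone. Over coding transcripts of the first and second quantification they numbered 9 and 12. Similar totals do not mean the same pairs, as the 11 by CPM included pairs outside the 12. Of the pairs of sums, 0 were called, with 1 by CPM, 1 at 1.5-fold and 1 over coding transcripts of the second quantification.

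Ratios over coding transcripts, a choice made after the data were seen, gave 3 called pairs a mean of the other sign. The mean log2 ratio was -0.26 for Becn1 over Pik3c3 in the first quantification. In the second it was 0.39 for Gabarapl1 over Gabarapl2, and 0.019 for Fundc1 over Bnip3l, whose 2 libraries differed in sign. Each of these genes other than Pik3c3, Gabarapl1 and Fundc1 had under 50% of its TPM in coding transcripts. Between the libraries, 0 genes of the 38 were called under every scaling, filter and fold tried. Scaling to the spike-ins left 3 of 38 higher in replicate 1, against 23, and 22 intervals without equality, against 9, and Bnip3l stayed the highest at 0.32. Exons mixed in both quantifications numbered 7 with limits of 20 and 80%, against 12. Leaving out 1 library left 23 to 25 genes whose leading transcript held at least 50%, and 27 to 28 with the same leading transcript. Depth limits Tfec, Gdap1 and Misp, with at most 9 counts in a library.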
